A study of Mus musculus with 6 samples.

Results

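The coats that form transport vesicles between the endoplasmic reticulum (ER) and the Golgi were followed here through 10 of their genes: Copg1, Copa, Copb1, Copb2, Cope and Arcn1 of the COPI coat, and Sec13, Sec23a, Sec24d and Sar1b of the COPII coat. They were taken by symbol from the array's annotation, and all 10 had at least 1 probe set that names no other gene, 16 probe sets in all, among 18193 measured genes and 45037 probe sets. The brightest probe set, by its mean over all arrays, stands for a gene, with any others beside it. The cells were mPAC L20, a mouse pancreatic duct line, and every culture was infected with an adenovirus that expresses Neurog3 from a CMV promoter, so no array shows cells without Neurog3. The 3 shControl arrays came from cells that also received an adenovirus with a scrambled hairpin RNA, and the 3 shAtoh8 arrays from cells given a virus with a hairpin against Atoh8 (called Math6 in the protocol), a basic helix-loop-helix transcription factor. Hairpin and Neurog3 viruses were each added at a multiplicity of infection of 40. Per the labels the experiment was done 3 independent times, and both groups carry the same replicate numbers.

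COPII vesicles carry newly made proteins out of the ER. The small GTPase Sar1 starts the coat by binding the ER membrane, Sec23 and Sec24 form the inner layer in which Sec24 selects cargo, and Sec13 with Sec31 forms the outer cage. COPI vesicles return escaped ER proteins and recycling receptors from the Golgi. Their coat, coatomer, is a complex of fixed subunits (alpha, beta, beta', gamma, delta, epsilon and zeta) that the small GTPase Arf1 recruits as a whole. Coats are needed in every cell and have a high load in cells that secrete.

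Values are log2 signals, on which a difference of 1 is a doubling, and differences are always shAtoh8 minus shControl. A gene was called changed at a limma p-value below 0.05 after Benjamini-Hochberg adjustment over all 45037 probe sets. None of the 10 members was called (0 of 10), where 1.15% of all genes were. At an unadjusted p under 0.05 there were 3, where 17.5% of all genes were. When the replicate number was added to the fit as a block, 1 member passed, Copg1, which was lower, while 4.67% of all genes passed (1.92% higher and 2.75% lower). The 10 members had a median difference of 0.11, 7 of them positive, against a median of 0.01 and 53.1% positive over all genes. All 3 shAtoh8 arrays lay above the shControl arrays for 4 members and below them for 2, where 12.6% and 11.4% of all genes did so. The members were chosen with earlier results of these data known, so these shares are a description.

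The checks on the cells apply to all of these values. Of 11 measured duct markers, 9 were above the median probe set on every array, Krt8, Krt18, Krt19 and Cdh1 among them, while Cftr and Onecut1 were not. Epcam, an epithelial adhesion protein, was lower in all 3 pairs, with a difference of -0.73 ± 0.19 (SE; limma adjusted p = 0.145, and 0.0463 with the replicate block), and was the 1 duct marker to pass with the block. Car2, on the same list, had the opposite sign without overlap of the groups, 0.60 ± 0.12 (limma adjusted p = 0.0853, and 0.0684 with the block). The rest of the duct list read -0.27 (Onecut1) to 0.25 (Muc1). Of 9 measured endocrine markers, 4 were above the median probe set on every array, and their mean was 5.64 to 6.08 in shControl and 5.34 to 5.86 in shAtoh8. Iapp, the islet hormone amylin, read -1.78 ± 0.39 without overlap of the groups (adjusted p = 0.0965, and 0.0189 with the block), and was the 1 endocrine marker to pass with the block. Chgb read -0.50 ± 0.35 with overlapping groups. The rest of the endocrine list read -0.06 (Sst) to 0.21 (Ins2), so the lower mean was not shared across the list. The mean of the 6 measured acinar markers was 5.65 to 5.80, and none passed either fit. The array medians were 5.49 to 5.56. The mean of the 8 fibroblast markers was 4.83 to 4.95, and that of the 5 leukocyte markers 5.25 to 5.50. Of these lists, 2 acinar, 1 fibroblast and 3 leukocyte markers were above the median probe set on every array. The leukocyte mean was the higher in shAtoh8 (5.43 to 5.50, against 5.25 to 5.38), and 1 of those markers, Lyz2, was called higher (0.75 ± 0.12, adjusted p = 0.0499). Cd68 had the opposite sign, -0.36 ± 0.25 (0.622), and the other 3 read 0.07 to 0.18. The part of these markers in the coat values was not tested. In bulk cultures such as these, fewer cells of a type and less RNA per cell cannot be told apart. Atoh8 itself read -0.49 ± 0.30 (SE, n = 3 per group; limma adjusted p = 0.573), so the knockdown was not called on these arrays. The groups overlapped, and Atoh8 was lower in all 3 pairs, by -0.92, -0.39 and -0.15. The probe sets of Neurog3 read -0.57 ± 0.48 and 0.18 ± 0.17, and neither was called. With the block the first, lower in all 3 pairs, passed (adjusted p = 0.0330), while the second, higher in all 3, did not (0.400), nor did Atoh8 (0.157). The shAtoh8 replicate 2 array had the widest gap of the 6 between its actin probe sets for either end of the transcript (0.354; the others 0.107 to 0.202).

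Copg1 encodes gamma-1 coatomer, which sits in the inner part of the COPI coat next to Arf1. It had the most negative difference of the 10 members. In the order of replicates 1, 2 and 3, as for every gene here, the brightest probe set had signals of 10.35, 10.24 and 10.40 in shControl and 9.88, 9.52 and 9.87 in shAtoh8. Every shAtoh8 array was below every shControl array, and replicate 2 was the lowest in each group. Group means were 10.33 ± 0.08 in shControl and 9.75 ± 0.20 in shAtoh8 (SD, n = 3 each), with a difference of -0.57 ± 0.12 (SE). This is 1.49-fold lower (limma adjusted p = 0.0815). The pairs differed by -0.48, -0.72 and -0.53. With the replicate block the SE was 0.09 and the adjusted p 0.0349. Without shAtoh8 replicate 2 the difference was -0.46 (adjusted p = 0.102, without the block). With the block and both arrays of replicate 1, 2 or 3 left out, the call was lost each time (adjusted p = 0.139, 0.0521 and 0.166).

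The other probe sets of Copg1 did not give the same picture. The next brightest read 9.19, 8.99 and 8.71 in shControl and 8.86, 8.76 and 8.53 in shAtoh8. It was lower in all 3 pairs, but the groups overlapped and the difference was smaller, -0.25 ± 0.15 (SE; limma adjusted p = 0.548, and 0.179 with the block). The third lay below the array median, in the 28.0th to 36.3rd percentile of probe sets, and had the opposite sign. It read 4.30, 4.30 and 4.43 in shControl and 4.52, 4.54 and 4.68 in shAtoh8, a difference of 0.23 ± 0.09 (adjusted p = 0.281). As the mean of its 3 probe sets Copg1 read -0.20 ± 0.07 (adjusted p = 0.225). Which part of the transcript each set reads was not analysed here.

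**Figure D1:**
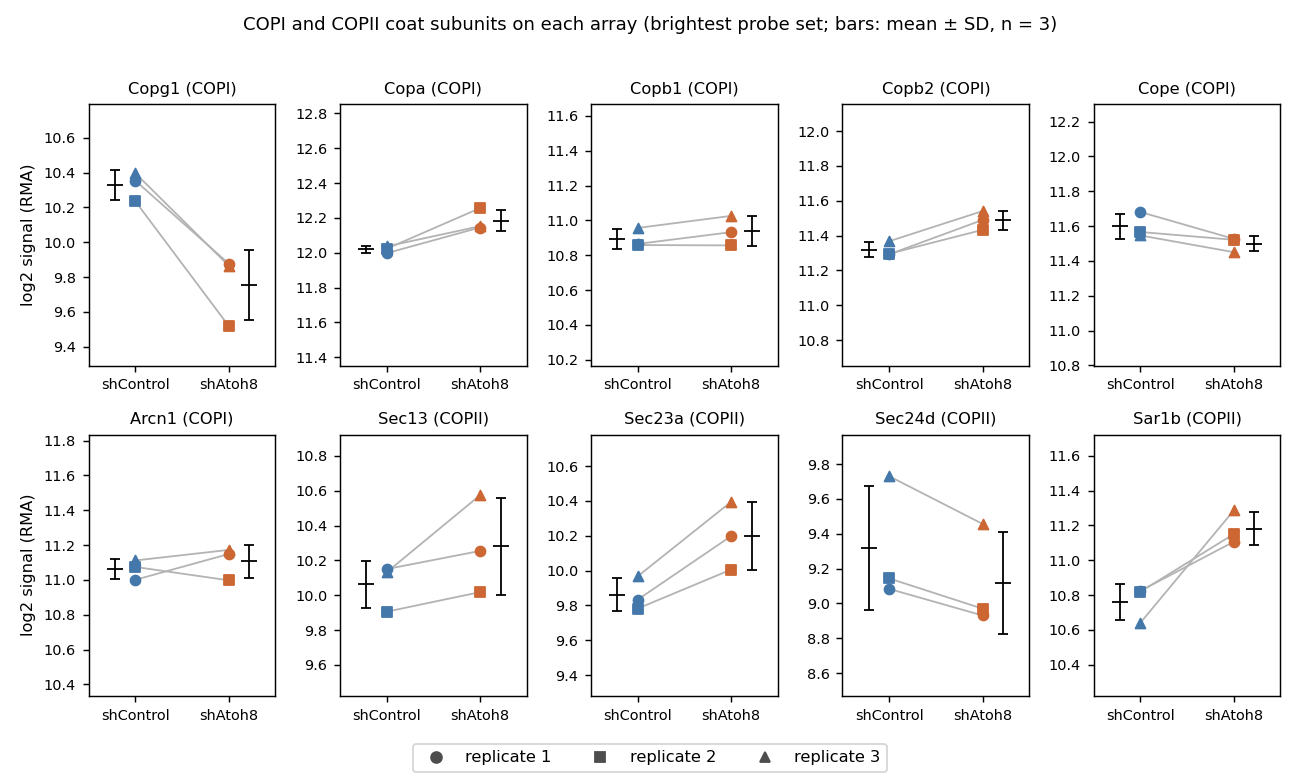
Log2 signal (RMA) of each of the 10 coat subunits in shControl and shAtoh8, brightest probe set, with grey lines joining arrays of the same replicate number, marker shapes for the replicates, and black bars for the mean ± SD (n = 3). Each panel spans the same range of log2 units around its own level. Copg1 is lower in all 3 pairs, by -0.48 to -0.72, as are Cope and Sec24d by less. Copa, Copb2, Sec13, Sec23a and Sar1b are higher in all 3. Of all 18193 genes 4359 were higher and 3939 lower in all 3 pairs. The other COPI subunits differ by -0.10 to 0.17.

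The other COPI subunits had smaller differences than Copg1. Copa, the alpha subunit of the outer layer, read 12.00, 12.02 and 12.04 in shControl and 12.14, 12.26 and 12.15 in shAtoh8. The groups did not overlap and shAtoh8 was the higher, by 0.17 ± 0.08 (SE; limma adjusted p = 0.407), so this small difference was not called. The dimmer probe set of Copa had the opposite sign, -0.14 ± 0.18, and its groups overlapped. As the mean of both sets Copa read 0.01. Copb2, the beta' subunit that pairs with alpha in that layer and binds the retrieval signals of cargo, read 11.29, 11.30 and 11.37 in shControl and 11.49, 11.43 and 11.54 in shAtoh8. It was 0.17 ± 0.08 higher without overlap (adjusted p = 0.398), and its other probe set, 0.23 ± 0.09 higher, did not overlap either (adjusted p = 0.291).

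Copb1, the beta subunit, and Arcn1, the delta subunit, belong with gamma to the inner layer that resembles a clathrin adaptor. Copb1 read 10.86, 10.86 and 10.96 in shControl and 10.93, 10.86 and 11.03 in shAtoh8, with overlapping groups and a difference of 0.04 ± 0.08 (SE; limma adjusted p = 0.896). Its 95% interval ran from -0.15 to 0.24. Arcn1 read 11.00, 11.07 and 11.11 in shControl and 11.15, 11.00 and 11.17 in shAtoh8, a difference of 0.04 ± 0.09 (interval -0.16 to 0.24; adjusted p = 0.902). The other 2 probe sets of Arcn1 read 0.00 ± 0.12 and 0.04 ± 0.08. Cope, the epsilon subunit that steadies alpha, read 11.68, 11.57 and 11.55 in shControl and 11.53, 11.52 and 11.45 in shAtoh8. Its shAtoh8 arrays were just below those of shControl, by -0.10 ± 0.08 (adjusted p = 0.695).

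Within the coatomer, then, the difference of Copg1 lay outside the intervals of the other 5 members when each was read from its brightest probe set. The 95% interval of Copg1 was -0.85 to -0.30, while those of the others ran from -0.28 at the lowest (Cope) to 0.35 at the highest (Copb2). The dimmer probe sets were not apart in this way. The interval of the dimmer Copa set ran from -0.55 to 0.28. That of the second Copg1 set ran from -0.59 to 0.09, and the third Copg1 set read 0.23. These intervals are not a test between genes. The mean of the other 5, each gene centred on its own level, lay at -0.04, -0.05 and -0.01 in shControl. In shAtoh8 it lay at 0.04, 0.00 and 0.06, higher in all 3 pairs, by 0.08, 0.05 and 0.06. Over the 6 arrays Copg1 and Copa had the lowest correlation of all member pairs (Pearson r = -0.98), and Copb2 and Sec23a the highest (0.97). All of these share the same 6 arrays and the same split into groups.

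**Figure D2:**
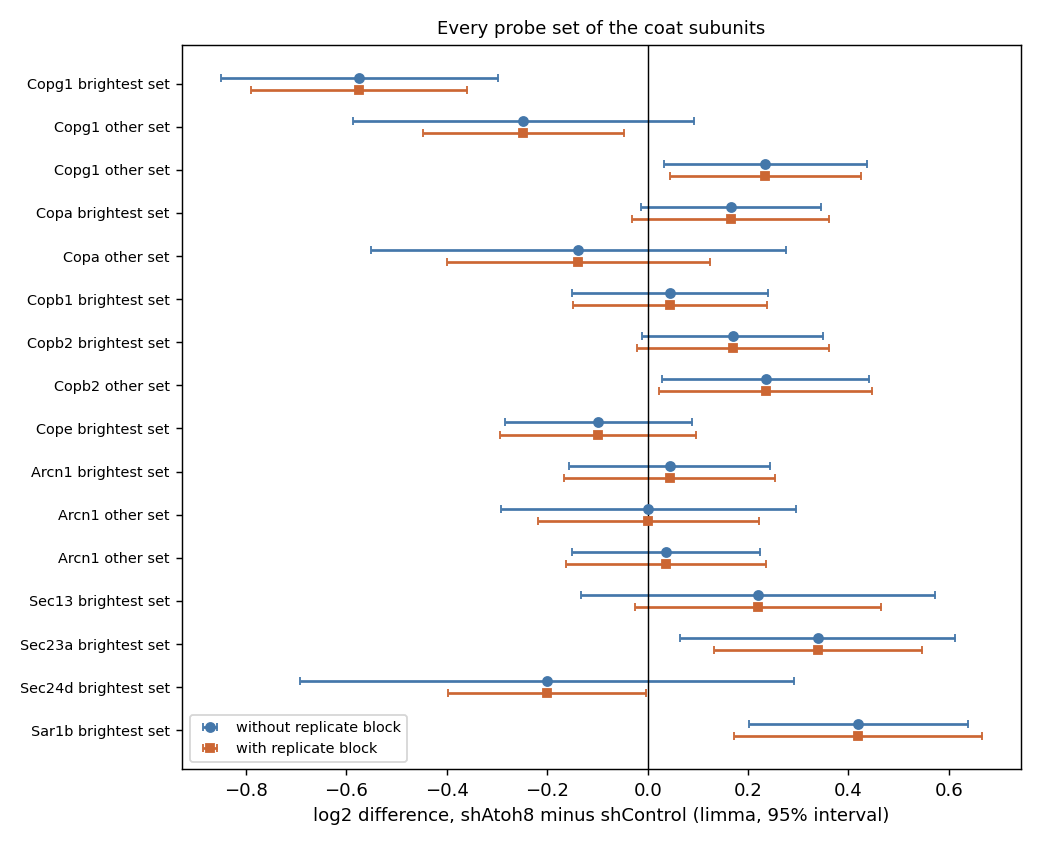
Log2 difference, shAtoh8 minus shControl, for all 16 probe sets of the 10 coat subunits, with limma's 95% intervals from the fit without the replicate block (blue circles) and with it (orange squares). The 3 sets of Copg1 run from -0.57 to 0.23, and the sets of the other COPI subunits lie between -0.14 and 0.23.

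Among the COPII members, Sar1b and Sec23a had the largest positive differences, and neither was called. Sar1b is the isoform of the initiating GTPase whose loss in humans causes chylomicron retention disease, in which large lipoproteins fail to leave the ER. It read 10.82, 10.82 and 10.64 in shControl and 11.11, 11.15 and 11.29 in shAtoh8. The groups were well apart, and replicate 3 was the lowest shControl array and the highest shAtoh8 array. The difference was 0.42 ± 0.09 (SE), 1.34-fold (limma adjusted p = 0.0971 without the replicate block and 0.0883 with it). In pairs it was 0.28, 0.33 and 0.65.

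Sec23a, which activates the GTPase of Sar1 within the inner layer, read 9.83, 9.78 and 9.97 in shControl and 10.20, 10.01 and 10.40 in shAtoh8. All 3 shAtoh8 arrays were the higher, and replicate 2 was the lowest array of each group. The difference was 0.34 ± 0.12 (SE), 1.26-fold (limma adjusted p = 0.249, and 0.0973 with the block), and 0.36, 0.22 and 0.43 in pairs. Sec13, which belongs to the outer cage and also to the nuclear pore, read 10.15, 9.91 and 10.13 in shControl and 10.25, 10.02 and 10.57 in shAtoh8. The groups overlapped, and the difference of 0.22 ± 0.15 (adjusted p = 0.625) came with pair values of 0.10, 0.11 and 0.44. Most of it was in replicate 3, and with 1 array left out it ranged from 0.07 (without shAtoh8 replicate 3) to 0.35 (without shAtoh8 replicate 2).

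Sec24d, a cargo adaptor of the inner layer, was the COPII member with a negative value. It read 9.08, 9.14 and 9.73 in shControl and 8.93, 8.97 and 9.46 in shAtoh8, so replicate 3 was the highest array of both groups and the groups overlapped. The difference was -0.20 ± 0.21 (SE; limma adjusted p = 0.781) without the block. It was much the same in the 3 pairs, -0.15, -0.17 and -0.27, and the SE fell to 0.08 with the block, but the adjusted p stayed above the threshold (0.265). Sec24d therefore differed more between replicate numbers than between hairpins.

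As a group the 4 COPII members had a median difference of 0.28, 3 of them positive, and the 6 COPI members a median of 0.04, 4 positive. The mean over the COPII members, each centred on its own level, lay at -0.13, -0.19 and 0.02 in shControl and at 0.02, -0.06 and 0.33 in shAtoh8. The groups overlapped by a narrow margin, and the pairs differed by 0.15, 0.12 and 0.31. The COPI mean was 0.02, -0.01 and 0.05 against 0.00, -0.09 and 0.02, with pair differences of -0.01, -0.08 and -0.03. These include Copg1. The other 5 COPI members had pair differences of 0.08, 0.05 and 0.06. No difference between the coats was tested.

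Several coat subunits are made from more than 1 gene, and the paralogues were read from lists of other coat genes. Of the 6 measured COPII genes outside the members, 1 was called, Sec24a, and it was higher, where 0.517% of all genes were called higher. Sec24a is the closest relative of Sec24b, in a family of 4 cargo adaptors. It read 8.98, 9.02 and 9.05 in shControl and 9.87, 9.93 and 10.21 in shAtoh8. It rose by 0.99 ± 0.11 (SE), 1.99-fold (limma adjusted p = 0.0225 without the block and 0.0162 with it). The call was lost without shControl replicate 1, 2 or 3 (adjusted p = 0.0813, 0.113 and 0.0716) and without shAtoh8 replicate 1 (0.0608), with the difference at 0.97 to 1.06. With the block it was lost without both arrays of replicate 1 (0.105) or replicate 3 (0.103). Its other probe set was dim, with no array above 4.26, and read 0.03 ± 0.14. As the mean of both sets Sec24a read 0.51 (adjusted p = 0.0550).

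The other Sec24 genes read -0.11 ± 0.11 (SE, Sec24b; limma adjusted p = 0.772), 0.15 ± 0.17 (Sec24c, 0.800) and -0.20 ± 0.21 (Sec24d). The paralogue pairs also gave different values. Sar1a read 0.05 ± 0.10 beside 0.42 for Sar1b, and Sec23b -0.04 ± 0.09 beside 0.34 for Sec23a. Copg2, which encodes the alternative gamma subunit, read -0.09 ± 0.11 (interval -0.34 to 0.15) beside -0.57 for Copg1. Whether paralogues differed was not tested. Sec31a, the partner of Sec13 in the cage, read 0.09 ± 0.14.

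**Figure D3:**
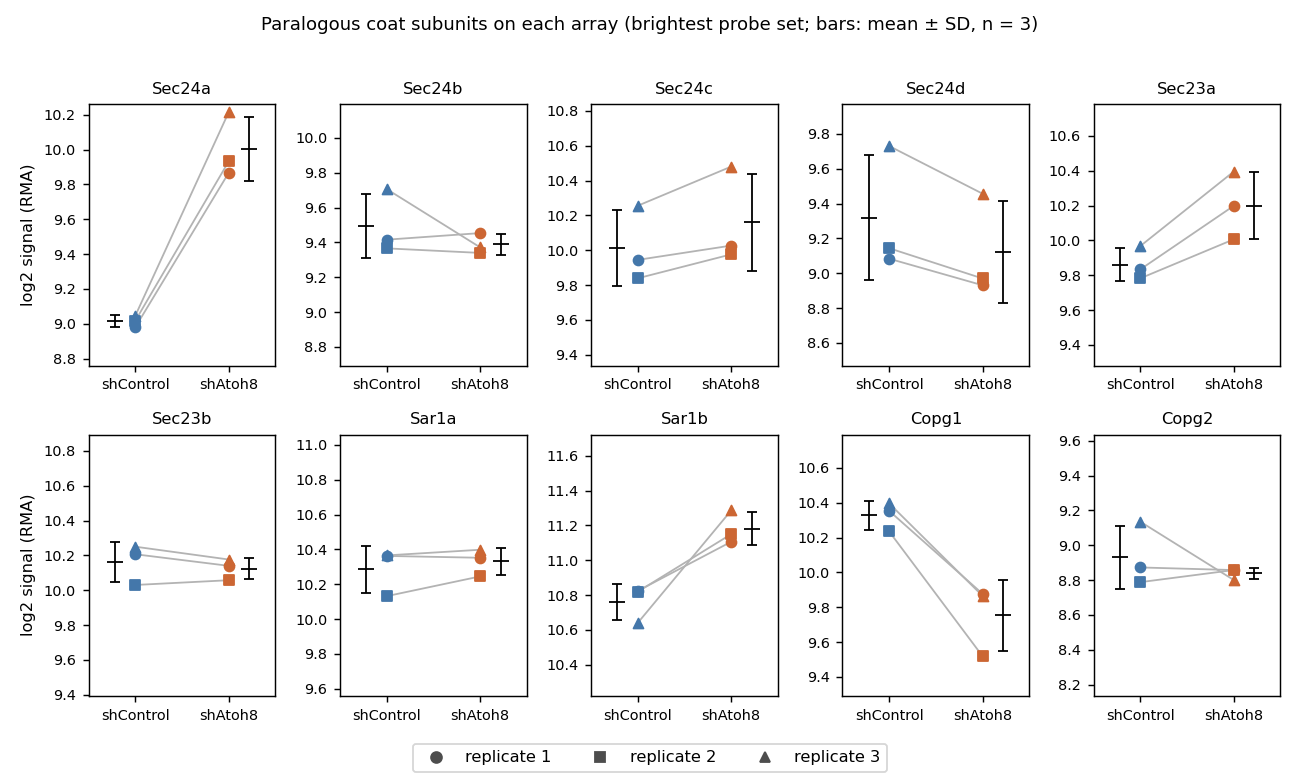
Log2 signal (RMA) of the Sec24, Sec23, Sar1 and gamma coatomer paralogues in shControl and shAtoh8, brightest probe set, with lines joining arrays of the same replicate number and black bars for the mean ± SD (n = 3). Sec24a is higher in all 3 pairs, by 0.89, 0.92 and 1.17, and the panels of Sec24b, Sec23b, Sar1a and Copg2 show overlapping groups.

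Sec24a and Sar1b, which had the largest positive differences of all coat genes measured, are neighbours on chromosome 11. This was noticed after the values were seen. In the RefSeq table (GRCm38.p6) they are transcribed away from each other, Sec24a on the minus strand and Sar1b on the plus strand, with 0 other protein-coding genes between them. The start sites in the promoter table lie 6.83 kb apart.

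The promoters of the members were searched for elements known from the unfolded protein response, which raises coat genes when the ER is overloaded. RefSeq windows (GRCm38.p6, from 250 bases before to 50 bases after 1 annotated start per gene) were matched for 9 of the 10 members. The 8 letters TGACGTGG, the binding element of the factors Xbp1 and Atf6, were present on either strand in 4 of the 9 windows (Copb1, Copb2, Sec23a and Sec24d), against 0.676% of the 32851 windows in the table. This element contains TGACGT, the core of the cyclic AMP response element, which 5 of the 9 windows held (7.51% of all windows), the same 4 genes and Cope. None of the 9 held the ER stress element (CCAAT, 9 bases, CCACG; 0.119% of all) or the E-box CACGTG (7.15%). Sequences are shown for Copb1, Copb2 and Sec24d, with the first element in capitals, and for Copg1 and Sar1b, the members with the largest differences. A match describes the letters, not a site in use, and its absence says only that these letters are not in this window. RefSeq begins Copg1 and Sec24d farther upstream than the start used here, so Copg1 is shown before that first start. A base is numbered from the start site, with the first transcribed base as 1 and the base before it as -1.
Copb1 (chr7:114254681-114254740, minus strand, bases -60 to -1, element at -28 to -21): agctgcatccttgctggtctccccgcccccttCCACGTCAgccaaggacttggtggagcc
Copb2 (chr9:98563671-98563731, plus strand, bases -60 to 1, element at -7 to 1): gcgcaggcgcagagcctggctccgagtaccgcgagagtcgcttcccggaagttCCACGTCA
Sec24d (chr3:123267459-123267488, plus strand, bases -37 to -8, element at -26 to -19): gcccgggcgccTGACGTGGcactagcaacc
Sar1b (chr11:51763563-51763662, plus strand, bases -100 to -1, CCAAT box on the reverse strand at -67 to -63): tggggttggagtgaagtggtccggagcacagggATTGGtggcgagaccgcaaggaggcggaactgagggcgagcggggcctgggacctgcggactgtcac
Copg1 (chr6:87887719-87887818, plus strand, bases -221 to -122, none of the motifs searched): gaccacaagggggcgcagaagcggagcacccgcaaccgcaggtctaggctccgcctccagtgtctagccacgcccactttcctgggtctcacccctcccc

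The 4 genes with the element had values of both signs. Copb1 read 0.04, Copb2 0.17, Sec23a 0.34 and Sec24d -0.20, and none was called. The CCAAT box was in 3 of the 9 windows (Cope, Sar1b and Sec24d), against 37.4% of all windows. Among the factors known to act on coat genes, Xbp1 read 0.01 ± 0.08 (SE; limma adjusted p = 0.968) and Atf6 -0.17 ± 0.14 (0.701). These values are RNA signals, and the activity of the factors was not tested. None of the 5 factors in this list was called (0, with 0 at an unadjusted p under 0.05), against 1.15% and 17.5% of all genes. The 2 with the smallest p were Creb3l1, -0.36 ± 0.17 (0.441), and Creb3l2, a membrane-bound factor known to drive Sec23a in cartilage, 0.21 ± 0.11 (0.517).

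Other genes of the traffic between ER and Golgi were read from 8 lists with 79 entries, of which 76 were measured. Of these 76 genes 1 was called higher (Sec24a) and 0 lower (15 at an unadjusted p under 0.05), where 0.517% of all genes were higher, 0.638% lower and 17.5% at an unadjusted p under 0.05. With the replicate block 3 passed higher and 2 lower, where 1.92% of all genes were higher and 2.75% lower. Named after their values were seen, the additional ones were Sec16b, an organiser of ER exit sites (0.94 ± 0.38 SE; limma adjusted p = 0.326, and 0.0292 with the block), Tmed5 (0.49 ± 0.18; 0.299 and 0.0397), Mia3 (-0.65 ± 0.13; 0.0741 and 0.0370) and the retrieval receptor Kdelr3 (-0.51 ± 0.28; 0.511 and 0.0463). The 76 genes had a median difference of 0.09, with 50 of 76 positive, against a median of 0.01 and 53.1% positive over all genes.

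The remaining coatomer gene family was zeta. Copz1 read 0.16 ± 0.08 (SE; limma adjusted p = 0.431) and Copz2 -0.25 ± 0.09 (0.262), each without overlap of the groups. With Copg2 these are the 3 coatomer genes outside the members. None was called (0, with 1 at an unadjusted p under 0.05), against 1.15% and 17.5% of all genes. None of the 8 measured Arf GTPases and their regulators was called (0, with 1 at an unadjusted p under 0.05), against the same shares. Arfgap1, which ends the life of the COPI coat by activating GTP hydrolysis on Arf1, read 0.33 ± 0.09 (0.159), and Arfgap2 0.29 ± 0.13 (0.415). Arf1 itself read 0.03 ± 0.07.

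At ER exit sites, none of 9 genes was called without the block (0, with 4 at an unadjusted p under 0.05). Of all genes 1.15% were called and 17.5% had an unadjusted p under 0.05. Positive values were seen for 7 of the 9 genes, against 53.1% of all genes. Mia3, or TANGO1, which loads collagen and other bulky cargo into COPII carriers, read 9.98, 10.11 and 10.11 in shControl and 9.27, 9.69 and 9.29 in shAtoh8, with no overlap. It was called without shAtoh8 replicate 2 (-0.79, limma adjusted p = 0.0406), but not with any other single array left out (0.148 to 0.231). Its call with the block was lost without both arrays of replicate 1 (0.166) or replicate 3 (0.189). The other 3 probe sets of Mia3 read -0.45, -1.13 and 0.07. The kinase gene Csnk1d read -0.37 ± 0.11 (SE; limma adjusted p = 0.178). Sec16a, the scaffold of the exit sites, had the opposite sign at the same adjusted p, 0.39 ± 0.11 (0.178), with all 3 shAtoh8 arrays above the shControl arrays. The brightest sets of Mia3, Csnk1d and Sec16a are marked for cross-hybridisation. Without such sets Mia3 read -0.45 (limma adjusted p = 0.119) and Csnk1d -0.39 (0.140). Among 16 retrieval and cargo receptors none was called (0, with 2 at an unadjusted p under 0.05), against 1.15% and 17.5% of all genes. Rer1 read 0.34 ± 0.11 (0.235), and both of its probe sets are marked for cross-hybridisation. Mcfd2, the partner of the cargo lectin Lman1, read 0.23 ± 0.09 (0.323).

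The p24 family of cargo receptors travels in both kinds of vesicle. None of its 7 measured members was called (0, with 3 at an unadjusted p under 0.05), against 1.15% and 17.5% of all genes. Tmed7 read 0.44 ± 0.09 (SE; limma adjusted p = 0.0817) and Tmed9 0.62 ± 0.15 (0.124). The other probe set of Tmed9 was of similar brightness and is marked for cross-hybridisation. It read 0.23 ± 0.11 with overlapping groups (limma adjusted p = 0.460). The other sets of Tmed7 read 0.50, 0.50, -0.02 and 0.27. Of the 22 SNAREs and tethers that fuse these vesicles 18 had positive values, against 53.1% of all genes. The median of this list was 0.12, against 0.01 over all genes. None was called (0, with 3 at an unadjusted p under 0.05), against 1.15% and 17.5% of all genes. Gosr2 read 0.23 ± 0.07 (0.228) and Stx18, the ER SNARE that receives COPI vesicles, 0.29 ± 0.10 (0.251). The Gosr2 and Stx18 values come from probe sets marked for cross-hybridisation. Without such sets Gosr2 was 0.16 ± 0.14 (0.742) and Stx18 0.09 ± 0.18 (0.914).

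**Figure D4:**
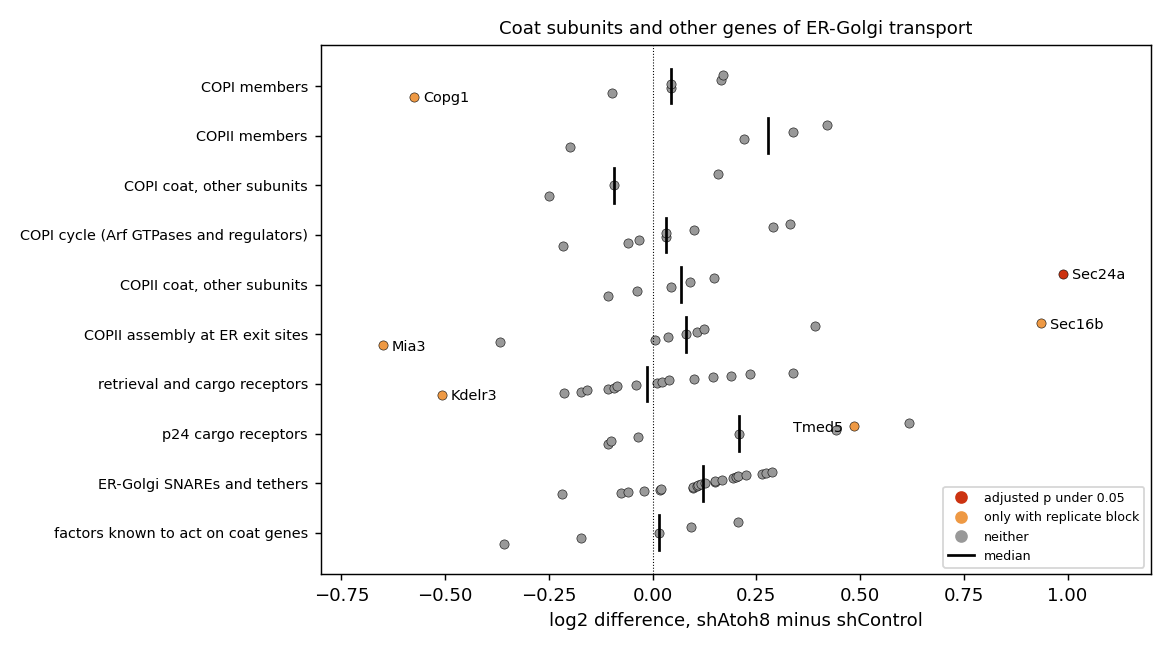
Log2 difference, shAtoh8 minus shControl, of each measured gene (points, brightest probe set) in the COPI and COPII members and in 8 lists of other ER-Golgi transport genes, with a black line at each median. Red marks the gene called without the replicate block (Sec24a, 0.99), and orange those that passed with the block alone. The SNAREs and tethers show 18 of 22 values above 0, against 53.1% of all genes.

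The genes whose profile over the 6 arrays was most like the mean of the 6 COPI members were Cd9, Sh3rf2, Dusp6, Tcf25 and Strip2 (Pearson r = 0.983 to 0.988). For the mean of the 4 COPII members they were Dlx6os2, Txn2, Rgs2, Vmp1 and Epn2 (0.992 to 0.995). These are the highest of 18183 correlations over 6 arrays, and none of these 10 genes was called.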

How the data were processed

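The authors deposited log2 signals per probe set, made with RMA in the affy package per the submitters' processing notes, with no version stated. RMA scales the arrays to each other before probe sets are summarised, so a change common to most genes cannot be seen. The summarised values still differed slightly between arrays, with medians of 5.49 to 5.56. The 64 control probe sets were left out. Probe sets took their gene from the platform annotation (34945 with 1 symbol, 932 with several, 9160 with none); symbols compared with RefSeq (GRCm38.p6) needed 0 changes. Groups were compared by linear models (lmFit, then eBayes, of limma 3.58.1 under R 4.3.3; two-sided, all 6 arrays, 4 residual and 3.30 prior degrees of freedom). The fits were also run on simulated, independent arrays. Those arrays held no effect of replicate number, so they do not show how the fits behave when arrays are paired.

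The members and lists were chosen with earlier results of these data known. Named beside the members were, in each list, genes past the threshold or else the 2 with the smallest p, Atoh8 and Neurog3, and the 5 most alike genes per coat. Paralogues and partners of the members (Sec24b, Sec24c, Sar1a, Sec23b, Sec31a, Copg2), Arf1, Xbp1, Atf6, Sec16a, the single cell type markers and the genes that passed with the block alone were named after their values were seen. The number of arrays limits the precision.

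Arrays that share a replicate number deviated together from their group means (r = 0.407, 0.187 and 0.433 over all probe sets; other combinations -0.351 to 0.0292), so the arrays were treated as pairs in the fit with the replicate block. Other alternatives covered normalization, centring, dim probe sets, the variance model, array weights, arrays left out, the probe sets used, the threshold and a minimum fold of 1.2. The promoter sequence of 1 member is not reported here.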

Additional observations from a re-analysis of the deposited data

How the results depend on the processing

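Alternatives to the normalization, centring, brightness filter, variance model, array weights, arrays used, probe sets, threshold and minimum fold left the count of called members at 0, with these exceptions. With the replicate block it was 1 (Copg1), and at a threshold of 0.10 it was 2 (Copg1 lower, Sar1b higher). Apart from Copg1 the block changed no call among the 10 members. With 1 array left out at a time, or both arrays of 1 replicate number with the block, the count ranged from 0 to 0. The sign of each member held in all 18 alternatives, except that Arcn1 turned to -0.0081 without both replicate 1 arrays (with the block) and Sec24d to 0.0057 without shControl replicate 3 (with 1 array left out it ranged from -0.37 to 0.0057). Copg1 ranged from -0.64 to -0.20, Sar1b from 0.31 to 0.49 and Sec23a from 0.24 to 0.44.

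The count of all genes called, 210, moved far more. It was 849 with the block, 324 with brighter probe sets only, 339 with array weights, 459 with probe sets averaged per gene, 0 at a threshold of 0.01 (3191 at an unadjusted p under 0.05 in limma), 691 at 0.10 and 22 with a minimum fold of 1.2. Leaving out 1 array gave 0 to 117, and leaving out both arrays of a replicate number (with the block) 0 to 966. The count of pathway genes, 1, was 5 with the block, 2 with array weights, 0 at a threshold of 0.01 (15 at an unadjusted p under 0.05 in limma), 3 at 0.10 and 0 with a minimum fold of 1.2 (4), and 0 to 5 with arrays left out (2 without shAtoh8 replicate 2, Sec24a and Mia3). With probe sets averaged the 1 pathway gene called was lower, Mia3 (-0.54), and 7 values not called shrank by over 1.5 times (Copg1 to -0.20, Copa to 0.01, Arcn1 to 0.03, Arfgap2 to 0.17, Copz1 to 0.08, Creb3l2 to 0.13, Stx18 to 0.17). The causes were not tested.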
